A study of Mus musculus with 6 samples.

Results

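The enzymes of the methionine cycle and of transsulfuration were examined in liver tumors of WT and Top1mt-KO mice. The rule took 10 genes by symbol (Mat1a, Mat2a, Gnmt, Pemt, Ahcy, Bhmt, Bhmt2, Mtr, Cbs and Cth), and all 10 were found among the 30236 genes of the expression table. All 10 also passed the filter on low values, which left 22677 genes for testing. Total RNA of 3 WT and 3 Top1mt-KO tumors was made into libraries with a stranded kit and sequenced. The KO mice lacked Top1mt, the mitochondrial type IB topoisomerase, and both genotypes were male C57BL/6 littermates. All animals had been given diethylnitrosamine, a liver carcinogen, at day 14 of life. From week 8 this was followed by carbon tetrachloride, a liver toxin, in injections described as biweekly, for 14 weeks. Tumors were taken at 22 weeks of age, so no untreated liver and no surrounding tissue entered the comparison. The labels do not say which animal each tumor came from, and the p-values therefore measure the spread between these samples. The values were log2 expression values normalized by the authors, from which read depth is unknown. Their transform is not named, and if it drew weakly expressed genes toward their mean, as a regularized log does, the log2 fold changes, ratios and fold values given here understate differences of such genes. Each library is bulk tumor tissue, in which fewer cells of a type and less RNA per cell cannot be told apart.

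Methionine is activated to S-adenosylmethionine, the methyl donor of most methylation reactions, and the liver is the main organ in which this happens. Methyl transfer leaves S-adenosylhomocysteine, which is split to homocysteine. Homocysteine is either methylated back to methionine, with betaine or methyl folate as the donor, or passed through transsulfuration to cysteine, a building block of glutathione.

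The targeted gene was looked at first. Top1mt had log2 values of 7.71, 5.99 and 8.01 in WT replicates 1 to 3, and of 5.58, 6.41 and 6.32 in Top1mt-KO replicates 1 to 3. The library labelled WT replicate 2 lay below KO replicates 2 and 3, against its label, so each direction given here rests on the labels. A second library stood apart for another reason. Gm42418, a transcript that overlaps a ribosomal RNA element, was at 22.0 in KO replicate 1 and between 11.66 and 15.80 in the other 5 libraries, and Lars2, the mitochondrial leucyl-tRNA synthetase, was at 20.06 there and between 8.44 and 12.67 elsewhere. WT replicate 3 held the upper of these values, at 15.80 and 12.67, above the remaining 4 libraries, which lay between 11.66 and 12.68 for Gm42418 and between 8.44 and 9.05 for Lars2. Both genes were read only as a check of the libraries, not as a result of the genotype. The cause of their values was not tested. The log2 fold change of Top1mt was -1.13 with all libraries (95% interval -2.34 to 0.07) and -1.49 without WT replicate 2 and KO replicate 1. Without WT replicate 2 alone it was -1.76 (95% interval -2.52 to -0.99), where the genotypes no longer overlapped, and without KO replicate 1 alone it was -0.87. WT replicate 2 was singled out by its value for this same gene. The loss of overlap and the larger difference of Top1mt without it follow from that choice and are no support for the labels. Because these libraries stood apart, log2 fold changes of the enzymes are also given without WT replicate 2 and KO replicate 1.

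None of the 10 enzymes differed between the genotypes by limma after Benjamini-Hochberg adjustment over all genes, where the call rate over all genes tested was likewise 0%. The adjusted p was 0.999 for each of the 10. At an unadjusted p under 0.05 the count was again 0 of 10 enzymes, against 4.34% of all genes tested. The 3 KO values lay wholly above the 3 WT values for 1 enzyme, Pemt, against 3.95% of all genes, and wholly below them for 0 enzymes, against 4.33% of all genes. Taking both directions, that was 1 of 10 beside a background of 8.28%, a share near the background. The log2 fold change (KO minus WT) was above 0 for 5 enzymes and below 0 for 5, with a median of 0.04 beside -0.02 over all genes tested. The sign of this median changed with the libraries kept, being -0.07 without KO replicate 2, 0.18 without KO replicate 1 and 0.19 without KO replicate 1 and WT replicate 2.

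**Figure D1:**
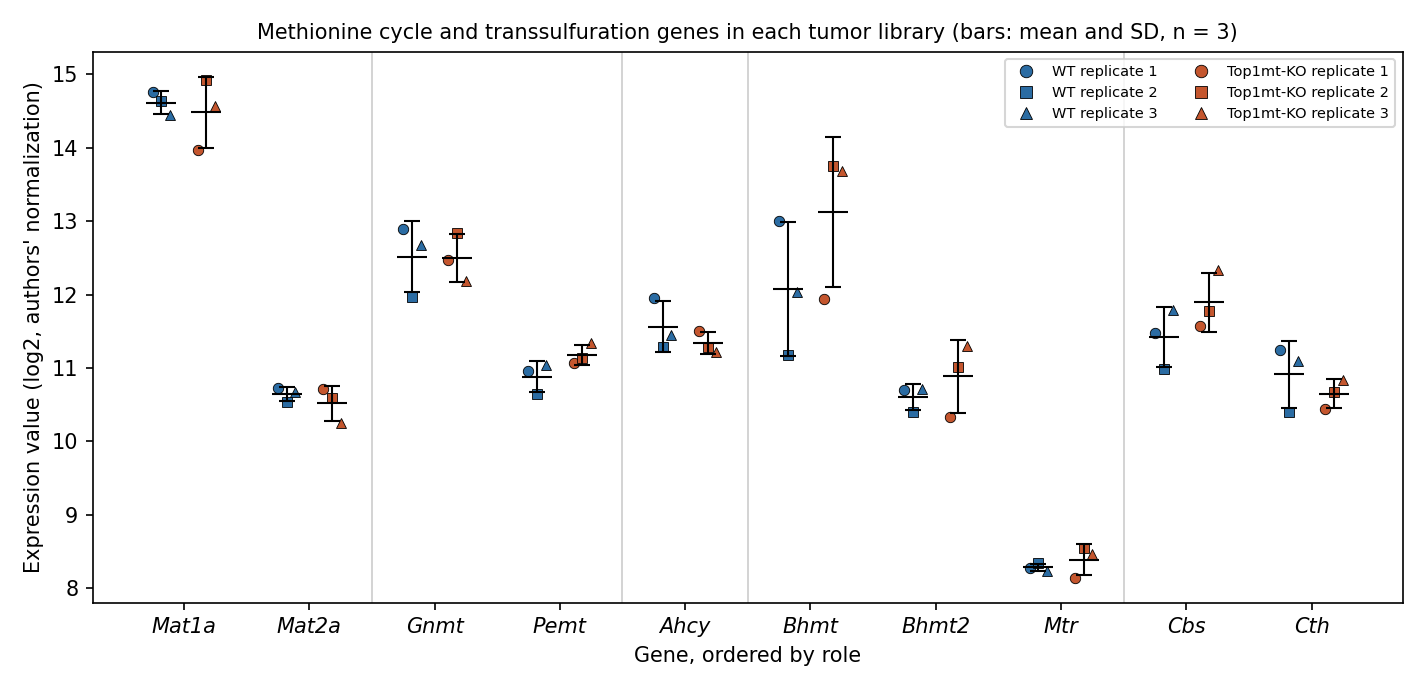
Expression values on the log2 scale (vertical axis) of the 10 enzyme genes (horizontal axis, grouped by role) in each library, with WT in blue, Top1mt-KO in orange, 1 symbol for each replicate number, and bars for the mean and SD (n = 3). The genotypes do not overlap for Pemt, overlap for the other 9 genes on this scale, and are most widely spread for Bhmt.

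The first step is carried out by methionine adenosyltransferase, which has a liver form encoded by Mat1a and a form encoded by Mat2a that predominates outside the liver and in dividing cells. Mat1a had log2 values of 14.75, 14.64 and 14.44 in WT replicates 1 to 3 and of 13.96, 14.92 and 14.57 in KO replicates 1 to 3. KO replicate 1 was the lowest library and KO replicate 2 the highest, so that the WT values fell inside the KO range. On average KO minus WT came to -0.13 (SE 0.31), with a 95% interval from -0.83 to 0.58. Without KO replicate 1 its sign turned, to 0.14.

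Mat2a had values of 10.72, 10.54 and 10.67 in the WT libraries and of 10.71, 10.59 and 10.25 in the KO libraries. Only KO replicate 3 lay outside the WT range, on the low side. This gave a log2 fold change of -0.13 (SE 0.16, 95% interval -0.49 to 0.23), and without KO replicate 3 it was 0.01. Another transcript, Particl, lies on the opposite strand over the start of Mat2a, but it has no row in the table.

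The balance of the 2 genes was taken as the log2 value of Mat1a minus that of Mat2a within each library, which cancels any scaling that acts on a whole library. It was 4.03, 4.10 and 3.77 in WT replicates 1 to 3 and 3.25, 4.33 and 4.32 in KO replicates 1 to 3. In KO replicates 2 and 3 the balance lay above all WT libraries, while in KO replicate 1 it lay below all of them. The mean was 3.97 ± 0.17 (SD, n = 3) for the WT tumors and 3.97 ± 0.62 (SD, n = 3) for the KO tumors, and the difference of 0.00 was within the spread (exact two-sided permutation test, p = 1, where 20 regroupings allow no p below 0.1). Without KO replicate 1 the difference was 0.36, with an exact permutation p of 0.1, again the smallest that number of libraries allows. Leaving out WT replicate 2 as well gave 0.43, with an exact permutation p of 0.333, which is also the smallest that the libraries left allow. Leaving out KO replicate 2 in its place gave -0.18, so the sign of the difference changed with the library left out.

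Per length of the main transcript, 3468 bases for Mat1a and 2804 bases for Mat2a, the balance was 3.66 on the log2 scale in WT and 3.66 in KO. As a linear ratio per kb, Mat1a exceeded Mat2a by 7.70 times in the library with the lowest balance and by 16.3 times in the library with the highest. These ratios depend on the length used, and with all exons of each gene, a choice made after the data were seen, they were 12.3 and 26.1 times. The liver form was thus the more abundant in all 6 tumors.

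**Figure D2:**
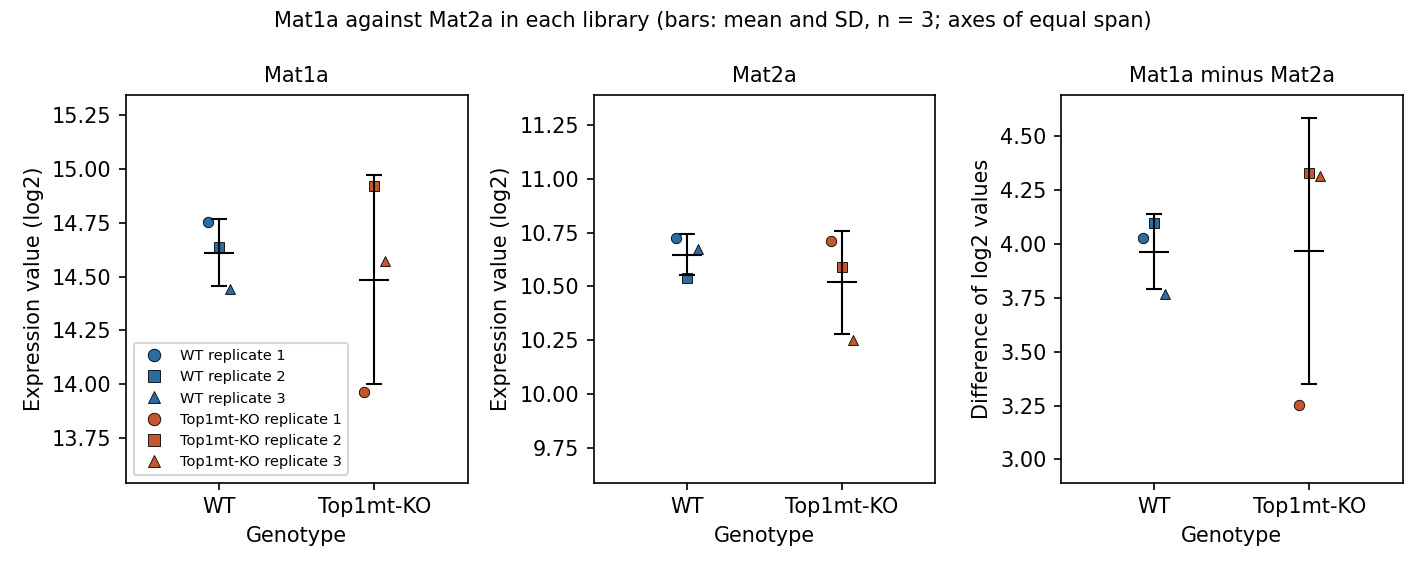
Log2 expression values of Mat1a and of Mat2a, and the difference of these log2 values, in each library by genotype, on axes of equal span, with bars for the mean and SD (n = 3). The mean difference is 3.97 in both genotypes, and KO replicate 1 lies apart at 3.25.

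Among the enzymes that use S-adenosylmethionine, Gnmt methylates glycine and is known as a buffer of methyl donor supply in the liver. Gnmt had values of 12.90, 11.97 and 12.68 in the WT libraries and of 12.47, 12.83 and 12.18 in the KO libraries. Both the highest and the lowest library were WT, namely replicates 1 and 2, so the KO values lay within the WT range. A noncoding transcript on the opposite strand that spans Gnmt, Gm26904, was far lower, between 0.94 and 3.34. For Gnmt the log2 fold change was -0.02 (SE 0.28, 95% interval -0.66 to 0.62), and its sign turned when each library was centred on its median (0.03). Leaving out 1 library at a time gave values from -0.29 without WT replicate 2 to 0.17 without WT replicate 1, with 0.14 without KO replicate 3.

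Pemt converts phosphatidylethanolamine to phosphatidylcholine by methylation. Its values were 10.95, 10.64 and 11.04 in the WT libraries and 11.07, 11.13 and 11.34 in the KO libraries. Each KO library lay above each WT library, although KO replicate 1 and WT replicate 3 were only 0.03 apart on the log2 scale. The means differed by 0.30 on the log2 scale, or 1.23-fold (SE 0.16, 95% interval -0.06 to 0.66). Without WT replicate 2 this difference was 0.18. On values taken relative to the hepatocyte markers, and after quantile normalization, the genotypes overlapped for Pemt too, with log2 fold changes of 0.27 and 0.28.

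Ahcy splits S-adenosylhomocysteine, a product that inhibits methyltransferases, to adenosine and homocysteine. Ahcy was at 11.95, 11.29 and 11.45 in the WT libraries and at 11.50, 11.29 and 11.21 in the KO libraries. WT replicate 1 was the highest library and KO replicate 3 the lowest, with the remaining 4 intermingled. Its log2 fold change of -0.23 (SE 0.20) had a 95% interval from -0.68 to 0.23. It was -0.04 without WT replicate 1, and -0.45 without WT replicate 2 and KO replicate 1, where the genotypes no longer overlapped for Ahcy. Ahcy has near-identical copies elsewhere in the genome, of which Gm4737 aligned over 2083 bases at 99.7% identity and Gm9826 over 1299 bases at 99.2%. Gm4737 ranged from 3.97 to 4.93 and Gm9826 from 4.90 to 5.83 over the libraries, from 5.49 to 7.65 below Ahcy in the same library on the log2 scale. Per the study's methods, reads that mapped to more than 1 place were left out before featureCounts was run, so reads from stretches that are identical between Ahcy and a copy would be missing from both. How many reads this concerned cannot be read from the table.

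Homocysteine remethylation has a betaine route, in which Bhmt acts, and a folate route with Mtr, the methionine synthase. Bhmt2 is a close relative of Bhmt that methylates homocysteine with S-methylmethionine. Bhmt was at 13.01, 11.18 and 12.04 in WT replicates 1 to 3 and at 11.94, 13.76 and 13.68 in KO replicates 1 to 3. KO replicates 2 and 3 exceeded all WT libraries, whereas KO replicate 1 lay below WT replicates 1 and 3. The mean difference was 1.05 on the log2 scale, or 2.07-fold (SE 0.58), and its 95% interval from -0.30 to 2.40 was the widest interval of the 10 enzymes. An interval of this width holds both no difference and a difference of over 2 on the log2 scale.

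Bhmt2 was at 10.70, 10.40 and 10.72 in the WT libraries and at 10.34, 11.02 and 11.30 in the KO libraries. As for Bhmt, KO replicates 2 and 3 were above every WT library and KO replicate 1 was not, being here the lowest of the 6. Over all libraries the log2 fold change of Bhmt2 was 0.28 (SE 0.25, 95% interval -0.29 to 0.84), and it was 0.07 without KO replicate 3. Mtr was at 8.27, 8.34 and 8.24 in the WT libraries and at 8.14, 8.55 and 8.46 in the KO libraries, with KO replicate 1 below and KO replicates 2 and 3 above a narrow WT range. For Mtr the log2 fold change was 0.10 (SE 0.16, 95% interval -0.26 to 0.47), which was 0.22 without KO replicate 1, 0.02 without KO replicate 2 and 0.06 without KO replicate 3.

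Without KO replicate 1, the log2 fold change was 1.65 for Bhmt (95% interval 0.49 to 2.80, adjusted p = 0.625 by limma) and 0.55 for Bhmt2 (95% interval 0.16 to 0.94, adjusted p = 0.631 by limma). Both then had an unadjusted p under 0.05, as 2 of the 10 enzymes, against 5.98% of all genes. With that library left out, 4 of 10 enzymes did not overlap between the genotypes (Pemt, Bhmt, Bhmt2 and Mtr), against 21.5% of all genes, and all 4 were higher in KO, against 9.77% of all genes. Without WT replicate 2 the log2 fold change of Bhmt was 0.60 and that of Bhmt2 was 0.17. Without both libraries, 7 of 10 enzymes did not overlap against 33.7% of all genes, of which 4 were higher in KO against 15.3%. Unadjusted p-values under 0.05 were then seen for 3 of 10 enzymes (Bhmt, Bhmt2 and Cth), against 5.95% of all genes, with log2 fold changes of 1.20, 0.45 and -0.42. For the other 7 enzymes, the log2 fold changes without both libraries were 0.15 for Mat1a, -0.28 for Mat2a, -0.28 for Gnmt, 0.24 for Pemt, -0.45 for Ahcy, 0.25 for Mtr and 0.42 for Cbs. Without WT replicate 3, the enzymes without overlap were 2 of 10 (Pemt and Cbs), against 17.4% of all genes. The adjusted p of each of the 10 enzymes stayed above 0.05 in these fits.

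Bhmt also varied the most within the genotypes. Its within-genotype SD was 0.97 on the log2 scale, a value reached by 5.86% of all genes tested and by 1.86% of the tested genes above the median by mean value. For the other 9 enzymes this SD ran from 0.15 for Mtr to 0.41 for Gnmt, beside a median of 0.25 over those genes above the median.

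Bhmt and Bhmt2 are neighbours on the minus strand of chromosome 13, at chr13:93616675-93637961 and chr13:93655720-93674302 in the GENCODE M21 annotation of GRCm38. Dmgdh, which encodes the dimethylglycine dehydrogenase that acts on the product of the Bhmt reaction, starts on the plus strand at chr13:93674433-93752833, so that 130 bases separate the starts of Bhmt2 and Dmgdh. Dmgdh was at 11.14, 10.53 and 11.04 in the WT libraries and at 10.95, 11.63 and 11.44 in the KO libraries. WT replicate 2 and KO replicate 1 were thus the lowest library of their genotype for Bhmt, Bhmt2 and Dmgdh alike, and KO replicates 2 and 3 the highest 2 of the 6. Dmgdh had a log2 fold change of 0.44 (SE 0.23, 95% interval -0.10 to 0.97).

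The stretch between the starts of Bhmt2 and Dmgdh is shown because the libraries stood in a like order for both genes, as they did for Bhmt. This order was not particular to the locus, since Pemt on chromosome 11 showed it too. WT replicate 2 was the lowest WT library for 8 of the 10 enzymes, beside 31.5% of all genes tested. KO replicate 1 was the lowest KO library for 7 of the 10, beside 33.1%. Whether the stretch has a part in that order was not tested. It is taken from the RefSeq promoter of Bhmt2 (GRCm38.p6, chr13:93674303-93674432), 5′ to 3′ on the minus strand toward Bhmt2, with a GGGCGG match in capitals.
Bhmt2 to Dmgdh intergenic stretch: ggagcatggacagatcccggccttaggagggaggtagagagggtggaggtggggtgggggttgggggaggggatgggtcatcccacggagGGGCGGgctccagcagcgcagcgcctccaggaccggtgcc
The stretch is 70.8% G or C and holds 6 CG dinucleotides, a number reached by 39.0% of the 32851 RefSeq promoters in their last 130 bases before the start. On both strands, 7 motifs were searched, and GGGCGG had 1 match, beginning at position -40 from the start of Bhmt2, beside 27.3% of promoters that hold it in the same span. There was no match of the TATA box letters TATAAA (held by 6.83% of promoters), of the letters CCAAT (22.4%), of the E-box CACGTG (3.88%) or of the cAMP response element TGACGTCA (1.30%). The letters TTGCNNAA (4.55%) and TGATGNAA (1.97%), searched as forms that C/EBP and ATF4 dimers are known to bind, had no match either. Promoters of 8 of the 10 enzymes are in the RefSeq table, without Mat1a and Cth.

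Other rows overlap Bhmt in position or resemble it in sequence. Gm15622, an antisense transcript at chr13:93625382-93628633 inside Bhmt, was at 6.46, 4.24 and 4.31 in the WT libraries and at 5.54, 7.02 and 7.23 in the KO libraries. Bhmt-ps1, a processed pseudogene on chromosome 4 that aligned to Bhmt over 1224 bases at 98.9% identity, was at 6.82, 4.85 and 6.18 in the WT libraries and at 5.72, 7.46 and 7.84 in the KO libraries. Both rows followed the order of Bhmt in setting KO replicates 2 and 3 above every other library. Bhmt exceeded Bhmt-ps1 by 5.84 to 6.32 on the log2 scale over the 6 libraries. A longer copy, Gm5096, aligned to Bhmt over 1869 bases at 99.4% identity and lay from 5.50 to 6.50 below it. Whether reads of Bhmt were counted to these rows was not tested, and the strand setting of the counting is not given in the sources used here.

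**Figure D3:**
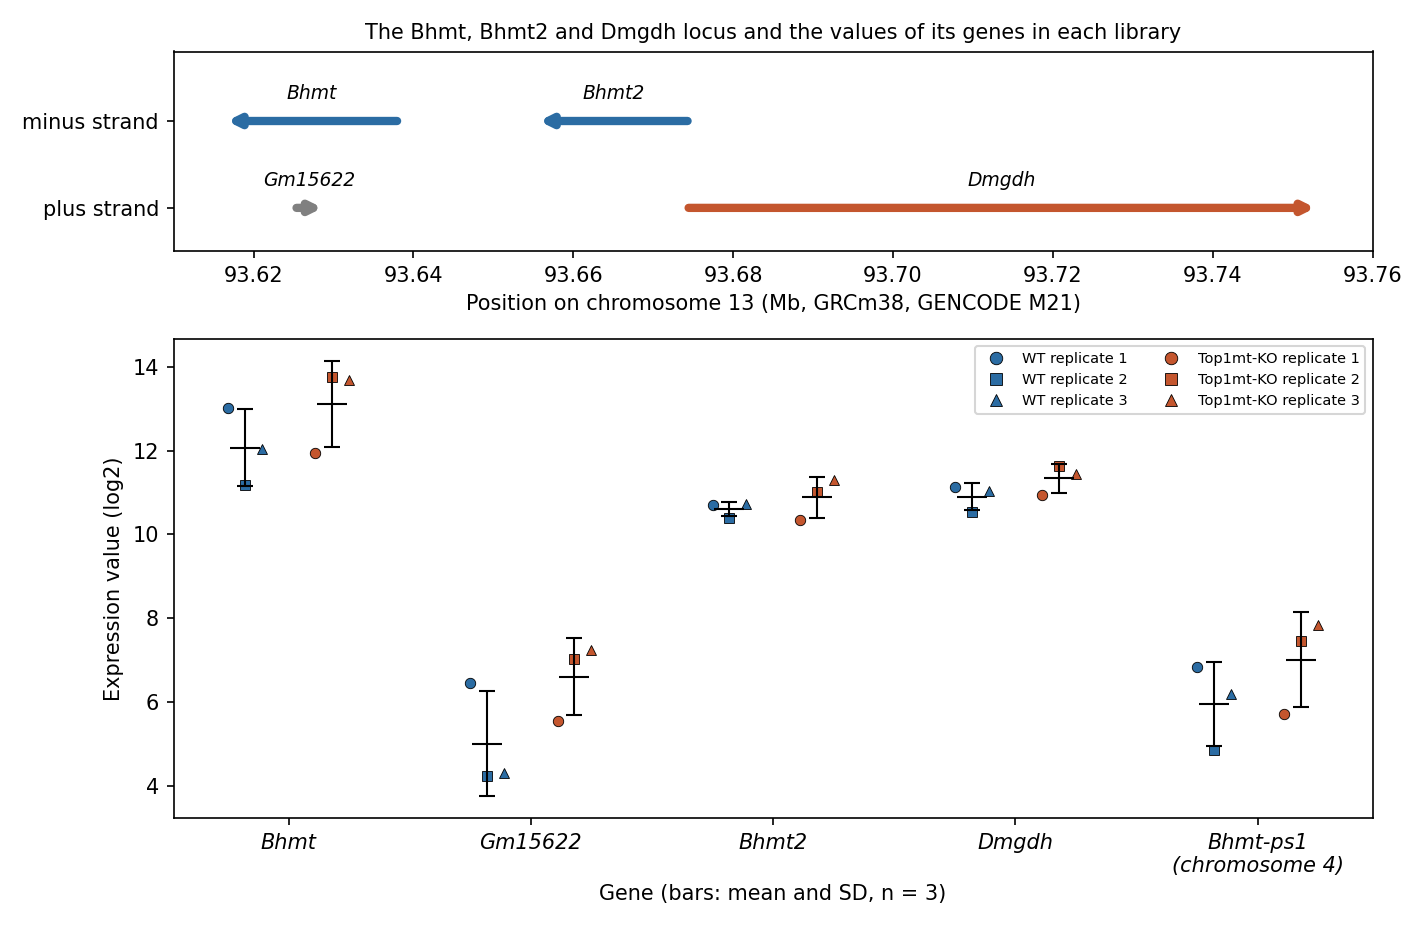
Upper panel, positions of Bhmt, Bhmt2, Dmgdh and the antisense Gm15622 on chromosome 13 (Mb, GRCm38) with arrows in the direction of transcription. Lower panel, log2 expression values of these genes and of the pseudogene Bhmt-ps1 in each library, with bars for the mean and SD (n = 3), in which KO replicates 2 and 3 lie above all WT libraries for each gene shown.

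Transsulfuration begins with Cbs, which joins homocysteine and serine to cystathionine, and ends with Cth, which cleaves cystathionine to cysteine. Cbs was at 11.48, 10.99 and 11.79 in the WT libraries and at 11.57, 11.78 and 12.34 in the KO libraries. KO replicate 3 was the highest library and WT replicate 2 the lowest, and WT replicate 3 lay above KO replicates 1 and 2. Cbs had a log2 fold change of 0.47, or 1.39-fold (SE 0.26, 95% interval -0.14 to 1.09), which was 0.26 without WT replicate 2 and 0.25 without KO replicate 3.

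Cth was at 11.24, 10.40 and 11.10 in the WT libraries and at 10.44, 10.68 and 10.83 in the KO libraries. WT replicates 1 and 3 were the highest 2 libraries, while WT replicate 2 was the lowest. With all libraries the log2 fold change of Cth was -0.26 (SE 0.23, 95% interval -0.80 to 0.28). Without WT replicate 2 it was -0.52 (95% interval -0.94 to -0.11, adjusted p = 0.961 by limma), and the genotypes then no longer overlapped, as for 2 of 10 enzymes (Cth and Pemt) against 18.3% of all genes. It was nearer to 0 at -0.10 without WT replicate 1, -0.16 without KO replicate 1 and -0.17 without WT replicate 3. A transcript annotated on the same strand within Cth, Gm43314, has no row in the table.

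With Cbs above and Cth below 0 in log2 fold change, their difference within a library was also computed, a choice made after the values were seen. Cbs minus Cth was 0.24, 0.59 and 0.69 in the WT libraries and 1.13, 1.10 and 1.51 in the KO libraries, so that each KO library lay above each WT library. The means were 0.51 ± 0.24 (SD, n = 3) and 1.25 ± 0.23 (SD, n = 3). Of the 45 pairs that the 10 enzymes form, 2 did not overlap between the genotypes in this way, the other being Pemt minus Cth, at -0.29, 0.24 and -0.06 in the WT libraries and at 0.63, 0.45 and 0.50 in the KO libraries. These 2 were 4.44% of the pairs. The share over pairs of all genes is not given here, and the 8.28% of single genes without overlap is no background for pairs. Both pairs contain Cth, and no test was made of pairs chosen by their values.

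Levels of the 10 enzymes were compared per length, as the log2 value minus the log2 of the main transcript's length in kb, over all 6 libraries. Mat1a was the highest at 12.75 ± 0.33 (SD, n = 6), followed by Gnmt at 12.45, Bhmt at 11.28, Pemt at 11.03, Ahcy at 10.10, Cth at 9.92, Bhmt2 at 9.44, Mat2a at 9.09 and Cbs at 9.02. Mtr, the enzyme of the folate route, was the lowest at 5.28 ± 0.15 (SD, n = 6). Of neighbours in this order, the ranges over the libraries were apart for Pemt above Ahcy and for Cbs above Mtr, and they overlapped for the other 7. Bhmt lay above Pemt in 3 of the 6 libraries and Gnmt lay above Bhmt in 5. The place of Cbs depended on the transcript taken, since it has 2 main transcripts, of 6226 and 2533 bases, and the order above uses the longer. With the shorter, a choice made after the data were seen, Cbs was at 10.32, between Pemt and Ahcy. With the length of all exons of a gene in place of the main transcript, likewise chosen later, Pemt and Ahcy, Cth and Bhmt2, and Mat2a and Cbs traded places, while Mat1a, Gnmt and Bhmt stayed at the top and Mtr at the bottom.

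Single libraries were low across many of the enzymes. WT replicate 2 was the lowest WT library for 8 of the 10 enzymes, with Mat1a and Mtr as the exceptions, beside 31.5% of all genes tested, and the lowest of all 6 for 5, beside 14.0%. KO replicate 1 was the lowest KO library for 7 of 10, beside 33.1%, and the lowest of all 6 for Mat1a, Bhmt2 and Mtr, beside 17.1%. Over all genes tested the library medians were 5.83, 5.65 and 5.80 in WT replicates 1 to 3 and 5.67, 5.71 and 5.74 in KO replicates 1 to 3, with the same 2 libraries the lowest of their genotype. The mean over the 10 enzymes was 11.60, 11.04 and 11.42 in WT replicates 1 to 3 and 11.21, 11.65 and 11.62 in KO replicates 1 to 3. WT replicate 2 and KO replicate 1 were thus the lowest of their genotype in this mean too, while WT replicate 3, which was also raised on Gm42418, was not.

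Other genes of the pathway were taken from 5 lists with 30 genes, all in the table. Of these 30, 3 were higher in KO without overlap and 1 lower, together 4 of 30 beside the 8.28% given above, and 2 had an unadjusted p under 0.05 beside 4.34%. None had an adjusted p under 0.05 by limma, beside 0% of all genes. Their median log2 fold change was -0.02.

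Among 8 partners of the methionine cycle, Mtrr, the reductase that keeps the methionine synthase active, was at 7.73, 7.85 and 7.87 in the WT libraries and at 7.38, 7.51 and 6.96 in the KO libraries. All KO libraries lay below all WT libraries for Mtrr, with a log2 fold change of -0.53 and a 95% interval from -0.98 to -0.08 (adjusted p = 0.999 by limma). Ahcyl1, a relative of Ahcy without its hydrolase role, was between 10.38 and 10.39 in WT and between 10.52 and 10.70 in KO, with a log2 fold change of 0.21. The other 6 partners overlapped between the genotypes.

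Of 7 other small-molecule methyltransferases, As3mt, which methylates arsenic, was at 9.03, 9.12 and 9.28 in the WT libraries and at 9.52, 9.47 and 9.49 in the KO libraries. The groups did not overlap for As3mt, and its log2 fold change was 0.35 with a 95% interval from 0.05 to 0.65 (adjusted p = 0.999 by limma). No gene was without overlap among the 4 of choline and betaine oxidation, where Dmgdh had the largest log2 fold change, nor among the 8 of polyamine synthesis and methionine salvage, where it was Amd1 at -0.53, nor among the 3 of glutathione synthesis, where it was Gclc at 0.37. Amd1, which decarboxylates S-adenosylmethionine for polyamine synthesis, ranged from 8.97 to 9.26 in WT and from 8.01 to 9.43 in KO. Gclc, the catalytic subunit of the first step of glutathione synthesis, was lowest in WT replicate 2 at 11.45 and between 12.30 and 13.09 in the remaining 5 libraries.

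Markers of liver cell types were read in the same libraries. Of 10 hepatocyte markers 9 were in the table, with Alb the most abundant at a mean of 20.74 and Ass1 the least at 13.26, so the tissue carried hepatocyte RNA in every library. Their summed level, as the log2 of the sum of linear values, was 21.14, 21.55 and 20.87 in the WT libraries and 21.66, 21.10 and 21.35 in the KO libraries, which overlapped. The 2 libraries with the highest sum were WT replicate 2 and KO replicate 1, the same ones that were low for most of the 10 enzymes. This sum is led by Alb, and the markers were split. In WT replicate 2, Tat (13.25), Cps1 (15.06) and Ass1 (12.78) were the lowest of the WT libraries, and the other markers the highest. In KO replicate 1, Ass1 (13.18) was the lowest of the KO libraries, Tat and Ttr lay between, and the others were the highest. Ttr was the only 1 of the 9 without overlap, at 0.58 in log2 fold change. Taken relative to the mean of the hepatocyte markers, the log2 fold change was 1.02 for Bhmt, 0.44 for Cbs and -0.30 for Cth, each with an adjusted p of 1 by limma.

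Hepatocytes differ in their enzymes along the liver lobule, so markers of both zones were read. Of 8 pericentral markers 7 were in the table, and all 7 had a log2 fold change below 0, with a median of -0.77. Of the 7, 4 had an unadjusted p under 0.05, beside 4.34% of all genes (Glul, Cyp2e1, Oat and Slc1a2, of which Glul is named after its value was seen), and 2 did not overlap, beside 8.28%. These 2 were Oat, at 10.16, 9.69 and 10.65 in the WT libraries and 8.85, 8.85 and 9.26 in the KO libraries, and Slc1a2, at 8.89, 8.84 and 9.56 in the WT libraries and 7.68, 5.56 and 7.49 in the KO libraries. Cyp2e1, the most abundant, had a mean of 13.58 and Lgr5, the least, of 6.28. Summed, the pericentral markers were at 15.07, 14.11 and 14.46 in the WT libraries and at 13.12, 13.72 and 14.20 in the KO libraries. The 6 periportal markers had 3 log2 fold changes above and 3 below 0, and summed to 15.47, 15.25 and 15.20 in the WT libraries and 15.18, 15.39 and 15.03 in the KO libraries, with Pck1 the most abundant and the only 1 without overlap (log2 fold change -0.50). None of these differences had an adjusted p under 0.05, and the part of either zone in the values of the 10 enzymes was not tested.

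Other cell types gave sums that overlapped between the genotypes for each list. Bile duct markers summed to 12.62, 12.16 and 11.59 in the WT libraries and 12.04, 11.71 and 12.58 in the KO libraries, led by Spp1, while Krt19 (log2 fold change -2.68) and Epcam (-1.19) were lower in KO without overlap and Cftr was the least abundant at 3.26. Of the 6 bile duct markers 2 had a log2 fold change above 0 and 4 below, with a median of -0.94. Without overlap were 2 of 6, beside 8.28% of all genes. An unadjusted p under 0.05 was seen for 2 of 6, beside 4.34% of all genes. These were Krt19 and Krt7, the latter at -2.20 and named after its value was seen. Stellate cell and myofibroblast markers, led by Col3a1, summed to 14.41, 13.11 and 12.76 in the WT libraries and 11.92, 14.10 and 13.10 in the KO libraries, with KO replicate 1 the lowest. Of the 7 stellate cell and myofibroblast markers 1 had a log2 fold change above 0 and 6 below, with a median of -0.41, and 1 had an unadjusted p under 0.05, beside 4.34% of all genes (Lrat at -0.79, named after its value was seen). Macrophage markers, led by Lyz2, summed to 12.67, 12.14 and 13.26 in the WT libraries and 12.12, 12.66 and 12.70 in the KO libraries, and here too WT replicate 2 and KO replicate 1 were the lowest of their genotype. The 6 macrophage markers had 3 log2 fold changes above 0 and 3 below. Lymphocyte markers were weakly expressed, with Cd3e, lower in KO without overlap, the least abundant at 2.28, and their sums ran from 6.43 to 7.47. Of the 7 lymphocyte markers 4 had a log2 fold change above 0 and 3 below. Endothelial markers, led by Stab2 and with Pecam1 higher in KO without overlap, summed to between 12.53 and 12.89, with 4 of 5 log2 fold changes above 0.

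Fetal liver and tumor markers, led by Afp, varied widely, with sums of 13.91, 12.27 and 11.29 in the WT libraries and 13.20, 10.58 and 10.30 in the KO libraries, and of these 5 markers 2 had a log2 fold change above 0 and 3 below, with Cd24a lower in KO without overlap. Proliferation markers, led by Mki67, summed to 10.96, 11.61 and 11.90 in the WT libraries and 11.75, 11.53 and 11.47 in the KO libraries, and of these 7 markers 3 had a log2 fold change above 0 and 4 below, with Mcm2 lower in KO without overlap. Cd24a and Mcm2 also had an unadjusted p under 0.05, beside 4.34% of all genes. They were 1 of 5 fetal liver and tumor markers and 1 of 7 proliferation markers. The median log2 fold change was -0.68 for the former list and -0.10 for the latter. In each marker list, genes without overlap stand beside 8.28% of all genes. The part of these cell types and states in the values of the 10 enzymes was not tested.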

How the data were processed

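RNA of 3 WT and 3 Top1mt-KO liver tumors was analysed, grouped by the labels. The deposited table lists, by gene symbol, log2 values that the authors normalized, ranging from -2.24 to 22.0. The transform is not named, and counts and depth cannot be recovered, so no count model was run. The submitters' processing notes name bcl2fastq 2.17, Trimmomatic 0.36, STAR 2.5.1, Subread, DESeq2 and GRCm38, whereas the study's methods name BWA and Mm 8. Positions are therefore those of GENCODE M21 on GRCm38, which holds 99.1% of the table's symbols, and are annotation only. The table has 3 columns without a name, which were not used.

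The comparison of genotypes used limma 3.58.1 with R 4.3.3 (lmFit, eBayes with trend, Benjamini-Hochberg over 22677 genes above the lowest 25% by mean, threshold 0.05), checked on simulated data. The Mat1a to Mat2a balance used an exact permutation test. Copies were sought with blastn 2.17.0 (at least 500 bases at 90% identity). Named are the 10 enzymes and Top1mt, per pathway list up to 3 genes without overlap or else the one with the largest absolute log2 fold change, and per marker list the most abundant gene and those without overlap. Some genes that this rule names are not reported here. Members and lists were chosen with earlier results of these data known. Of 107 listed genes 105 are in the table under the listed symbol, without Tf and Rhbg. Alternatives were limma without trend, quantile normalization, median centring, other filters, the replicate number as a block, left-out libraries and values relative to hepatocyte markers.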

Additional observations from a re-analysis of the deposited data

How the results depend on the processing

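Across 14 alternatives and 10 enzymes, 133 of 140 log2 fold changes kept their sign. By construction 4 of these alternatives (no trend, both other filters and the block) leave log2 fold changes as they are; of the 100 that could move, 93 kept their sign. The 7 that did not were Mat1a (0.14 without KO replicate 1 and 0.15 without it and WT replicate 2), Mat2a (0.0050 without KO replicate 3) and Gnmt (0.0341 with median centring, and 0.17, 0.06 and 0.14 without WT replicate 1, WT replicate 3 and KO replicate 3). Leaving out 1 library at a time, Mat1a ran from -0.34 to 0.14, Mat2a from -0.22 to 0.0050, Gnmt from -0.29 to 0.17 and Bhmt from 0.60 to 1.65. The balance difference was -0.0194 with quantile normalization and ran from -0.18 to 0.36 when 1 library was left out. The cause was not tested.

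By limma, 0 genes passed the adjusted threshold under most alternatives; 4 did with no filter on low values, and from 0 to 1 when 1 library was left out (1 without KO replicate 1). Of the 10 enzymes 0 passed under each alternative run. The number of enzymes without overlap, 1 with all libraries, was 0 with quantile normalization, 0 relative to hepatocyte markers, 7 without WT replicate 2 and KO replicate 1, and from 1 to 4 when 1 library was left out. Over all genes the share without overlap was 8.28% with all libraries and 33.7% without WT replicate 2 and KO replicate 1. It was 21.5% without KO replicate 1, 18.3% without WT replicate 2 and 17.4% without WT replicate 3. For the other alternatives this share is not given here. Unadjusted p-values under 0.05 were seen for Pemt with median centring, for Bhmt relative to hepatocyte markers, without WT replicate 1 (log2 fold change 1.52), without KO replicate 1 and without KO replicate 1 and WT replicate 2, for Bhmt2 in the last 2 of these, and for Cth without WT replicate 2, alone or with KO replicate 1. Over all genes the share with such a p was 5.98% without KO replicate 1 and 5.95% without both libraries. For the other settings named it is not given here, so these p-values cannot be set against a background.

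With the replicate number as a block, 0 genes and 0 enzymes passed and the balance difference stayed at 0.00. The labels do not say that the numbers pair the samples. Same-numbered libraries correlated at -0.123, -0.0759 and 0.0520 in their deviations from the genotype means. For replicate 3 the best partner was the same-numbered library. With so few libraries these correlations cannot exclude a pairing. Overlap has no value under the block or without the trend, which leave the values as they are.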
